A study of Mus musculus with 6 samples.

Results

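The genes described here are 9 members of the TALE class of homeobox genes, *Meis1*, *Meis2*, *Meis3*, *Pbx2*, *Pbx3*, *Pbx4*, *Pknox1*, *Tgif1* and *Tgif2*, chosen by symbol from the 39179 mouse genes in the bone marrow RNA-seq counts. All 9 had reads in at least 1 mouse, and 8 of them were among the 15980 genes with enough reads to be tested. The exception was *Meis2*. The study compared 3 *MxCDX2* mice with 3 control littermates and asked what ectopic expression of the human *CDX2* homeobox gene does in the hematopoietic lineage.

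*MxCDX2* mice (genotype *RsCDX2::Mx1Cre*) carry the *RsCDX2* knockin, in which a stop sequence flanked by loxP sites at *Rosa26* precedes the coding sequence of human *CDX2*, together with the *Mx1Cre* transgene. Each control mouse had its own genotype: control 1 was *RsCDX2*, control 2 was *Mx1Cre* and control 3 was wild type. All 6 mice were 3 months old when poly(I:C) was given intraperitoneally in 3 doses of 10 µg per g, and their marrow RNA was taken 6 weeks later. Cre is driven by the interferon-inducible *Mx1* promoter, which is not restricted to blood cells, and the spread of the control group holds differences of genotype as well as differences between animals. The transgene is human while reads were counted on mouse genes. Mouse *Cdx2* had 4, 0 and 0 reads in control mice 1, 2 and 3, and 152, 155 and 183 reads in *MxCDX2* mice 1, 2 and 3, so the labels of both groups held.

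TALE homeodomain proteins differ from other homeodomain proteins by a loop of 3 additional amino acids between the first and the second helix of the homeodomain. PBX proteins bind DNA together with HOX proteins, MEIS and PREP proteins (PREP1 is the product of *Pknox1*) bind PBX and help to retain it in the nucleus, and TGIF proteins are repressors that compete for related DNA sites and restrain SMAD signalling. In blood formation, MEIS1 is known for its role in hematopoietic stem cells and megakaryocytes and, with HOXA9, in acute leukemia.

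The coding sequence of that loop, taken from the transcripts of GENCODE M21 (GRCm38), is shown for each gene because the loop defines the class. The 3 loop codons alone do not separate the subfamilies, since those of *Meis1* and *Pbx2* are identical. Each stretch below is 45 bases of the homeobox written 5′ to 3′, and the capitals mark the 3 codons of the loop.
Meis1: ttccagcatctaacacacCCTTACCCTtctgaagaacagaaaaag
Meis2: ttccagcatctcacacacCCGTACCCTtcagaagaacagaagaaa
Meis3: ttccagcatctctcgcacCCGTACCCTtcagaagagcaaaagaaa
Pbx2: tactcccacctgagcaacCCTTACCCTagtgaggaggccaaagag
Pbx3: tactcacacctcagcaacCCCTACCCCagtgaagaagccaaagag
Pbx4: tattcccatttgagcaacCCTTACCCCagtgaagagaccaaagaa
Pknox1: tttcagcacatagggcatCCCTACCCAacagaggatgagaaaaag
Tgif1: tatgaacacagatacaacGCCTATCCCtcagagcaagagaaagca
Tgif2: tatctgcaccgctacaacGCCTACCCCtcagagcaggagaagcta
Over the 189 bases of the homeobox, the 7 pairs of genes within a subfamily were identical at 75.1 to 84.7% of bases and the 29 pairs from different subfamilies at 44.4 to 66.1%. Over the whole transcripts, at any position and without alignment, the longest run of identical bases shared by a pair was 28 bases, between *Meis2* and *Meis3*.

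Reads counted on genes ranged from 38646101 to 49899650 per mouse. In a principal component analysis of log2 CPM, the first component (60.5% of the variance) separated *MxCDX2* mice from control mice, and the second (15.6%) set control 3 apart. The results that rest most on control 3 are therefore also given without that mouse. Values below are normalized counts, that is, reads scaled to the mean library size of the 6 mice after TMM normalization by edgeR. The quasi-likelihood F-test of edgeR was used for differences, and p-values were adjusted over the 15980 genes (Benjamini-Hochberg). A gene was called at an adjusted p below 0.05, and the study's second threshold was an absolute log2 fold change above 1.

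Of the 8 TALE genes tested, 1 was called, against 21.7% of all genes tested (3471 of 15980). This gene, *Meis1*, was lower in *MxCDX2* mice, as were 11.8% of all genes tested. It also passed the fold change threshold, as did 13.6% of all genes tested. The values of the groups did not overlap in 6 of the 8 genes, namely *Meis1*, *Meis3*, *Pbx2*, *Pbx3*, *Tgif1* and *Tgif2*, against 42.1% of all genes tested. The log2 fold change was negative for 6 genes and positive for *Pbx3* and *Tgif1*, with a median of -0.33 against 0.00 over all genes tested. Without control 3 the median was -0.32 against 0.04. At an unadjusted p below 0.05 by edgeR's quasi-likelihood test there were 4 genes, *Meis1*, *Meis3*, *Pbx3* and *Tgif1*. At least 5754 of the 15980 genes tested were below that p as well. In the exact two-sided permutation test on single genes the smallest p that 3 mice against 3 can give is 0.10, which the 6 genes without overlap reached.

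**Figure D1:**
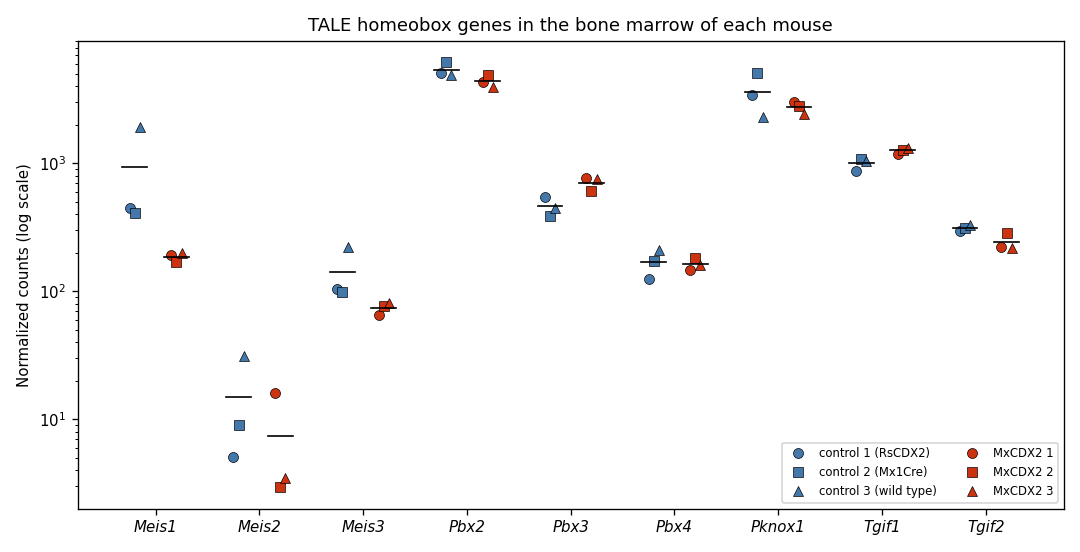
Normalized counts of each TALE gene (log axis) in the 3 control mice (blue) and the 3 *MxCDX2* mice (red), where each point is 1 mouse and black lines are group means. *Meis1* stood at 169 to 198 in *MxCDX2* mice, below the 406 to 1936 of control mice, and its highest point was control 3.

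*Meis1* (chromosome 11, 18879817 to 19018985, minus strand, GRCm38), the cofactor that stabilizes HOX and PBX complexes, had 446, 406 and 1936 normalized counts in control mice 1, 2 and 3. In *MxCDX2* mice 1, 2 and 3 it had 192, 169 and 198. The groups did not overlap, and the *MxCDX2* mice were close to each other (mean 186 ± 15.7, SD, n = 3) while the control mice were not (929 ± 872, SD, n = 3). *Meis1* fell with a log2 fold change of -2.32 (SE 0.64, 95% confidence interval -3.83 to -0.80, adjusted p = 0.0434 by edgeR's quasi-likelihood test), and it ranked 3220 by p among the 3471 genes called.

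The size of this fall depended on control 3, which had 4.54 times the mean of the other two control mice. The log2 difference between control 3 and the mean of those mice was 2.18 for *Meis1*, which placed it at percentile 97.7 of the genes tested. Without control 3 the log2 fold change of *Meis1* was -1.18 (SE 0.18, 95% confidence interval -1.62 to -0.73) and the adjusted p was 0.00876 by edgeR's quasi-likelihood test, in a fit that called 27% of 16179 genes. *Meis1* was also called without control 1 and without control 2, with log2 fold changes between -2.68 and -1.18 over the 6 fits that each left out 1 mouse. It was not called when *MxCDX2* mouse 1, 2 or 3 was left out (adjusted p = 0.107, 0.130 and 0.128 by edgeR). With total counts in place of TMM the adjusted p was 0.0505 and with limma voom it was 0.116.

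The 250 bases before the RefSeq start of *Meis1* are shown because *Meis1* was the TALE gene called. They are from RefSeq (GRCm38.p6, chr11:19018970-19019219, minus strand, 5′ to 3′), they end at the base before that start, and they hold no capitals because no motif searched was found in them. One GENCODE transcript of *Meis1* starts further upstream, at the end of the gene given above, so that the last 16 of these bases lie within it.
Meis1 upstream: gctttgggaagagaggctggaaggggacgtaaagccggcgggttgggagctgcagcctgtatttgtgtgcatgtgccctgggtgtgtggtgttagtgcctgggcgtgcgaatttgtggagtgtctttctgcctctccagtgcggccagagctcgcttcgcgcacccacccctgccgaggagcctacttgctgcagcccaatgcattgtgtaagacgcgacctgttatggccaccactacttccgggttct
The motifs, searched on both strands of the 250 bases before the start, were TTTAT for CDX proteins, TGACAG for MEIS and PREP1, TGTCA for TGIF proteins, which overlaps the reverse complement of TGACAG, and TGATTNAT for PBX with HOX. Among the same stretch of 32841 mouse promoters, 37.3% held TTTAT, 15.9% TGACAG, 40.0% TGTCA and 2.83% TGATTNAT. Promoters were found for 7 of the 9 genes. TTTAT was present in those of *Meis2* (2 matches), *Pbx4* (1 match, 33 bases before the start) and 1 of the 5 listed starts of *Tgif1*, where it lay within a match to TGATTNAT. TGTCA was present in that of *Meis3* (2 matches) and at 3 of the 5 starts of *Tgif1*, and TGACAG in none of the promoters found. A match is a run of letters and was not tested as a binding site. The paper searched a longer promoter region with other motif models and listed a consensus CDX2 site in that of *Meis1*. The lack of TTTAT in the 250 bases therefore does not bear on that site.

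*Meis3* (chromosome 7, 16175090 to 16186504, plus strand), a paralogue of *Meis1*, had 105, 98.3 and 221 normalized counts in control mice 1, 2 and 3, against 65.7, 76.4 and 81.0 in *MxCDX2* mice 1, 2 and 3. All *MxCDX2* mice were below all control mice, and control 3 was again the highest, at 2.17 times the mean of the other control mice. Its log2 fold change was -0.93 (SE 0.38, 95% confidence interval -1.84 to -0.01) and the difference did not pass (adjusted p = 0.134 by edgeR's quasi-likelihood test). Without control 3 it was -0.43.

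*Meis2* (chromosome 2, 115863064 to 116065839, minus strand) was near the limit of detection, with 4, 9 and 34 reads in the control group and 15, 3 and 4 in the *MxCDX2* group. The groups overlapped, control 3 was the highest, and the gene was not tested by the main rule. When every gene with a read was kept, its log2 fold change was -1.02 (adjusted p = 0.517 by edgeR's quasi-likelihood test), and without control 3 it was 0.05 (adjusted p = 0.973), with the sign turned.

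*Pbx3* (chromosome 2, 34171457 to 34373142, minus strand), a HOX partner that is often raised together with *Meis1* in leukemia with high *HOXA9*, was higher in *MxCDX2* mice, unlike *Meis1*. It had 547, 390 and 449 normalized counts in control mice 1, 2 and 3, against 764, 603 and 749 in *MxCDX2* mice 1, 2 and 3. The groups did not overlap, with 603 as the lowest *MxCDX2* value and 547 as the highest control value. With a log2 fold change of 0.61 (SE 0.19, 95% confidence interval 0.15 to 1.07), *Pbx3* missed the threshold (adjusted p = 0.0666 by edgeR's quasi-likelihood test). It was 0.61 without control 3 as well. The call for *Pbx3* depended on the method, since the adjusted p was 0.0247 with DESeq2 and 0.0311 with edgeR on total counts.

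*Pbx2* (chromosome 17, 34591266 to 34597400, plus strand), which encodes a broadly expressed PBX protein, had 5053, 6208 and 4884 normalized counts in control mice 1, 2 and 3, against 4324, 4866 and 3934 in *MxCDX2* mice 1, 2 and 3. The groups were adjacent rather than apart, with 4866 as the highest *MxCDX2* value and 4884 as the lowest control value. The log2 fold change of -0.30 (SE 0.13, 95% confidence interval -0.62 to 0.02) did not pass (adjusted p = 0.162 by edgeR), and it was -0.18 both without control 2, the highest mouse, and with total counts in place of TMM. *Pbx2* overlaps *Gpsm3* on the same strand, a gene with 3261 to 5641 reads per mouse, and reads that fit both genes were ambiguous in the counting.

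*Pbx4* (chromosome 8, 69832491 to 69872292, plus strand) had 125, 173 and 209 normalized counts in control mice 1, 2 and 3, against 146, 183 and 160 in *MxCDX2* mice 1, 2 and 3. The *MxCDX2* values fell within the range of the control values. The log2 fold change was -0.05 (SE 0.27, adjusted p = 0.915 by edgeR), with a 95% confidence interval from -0.70 to 0.59, and its sign turned without control 3 (0.15).

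*Pknox1* (chromosome 17, 31564734 to 31607693, plus strand), which encodes PREP1, the other PBX partner related to MEIS, had 3423, 5042 and 2300 normalized counts in control mice 1, 2 and 3. In *MxCDX2* mice 1, 2 and 3 it had 3025, 2787 and 2418. The groups overlapped because control 3, the highest mouse for all 3 *Meis* genes, was the lowest for *Pknox1*. Its log2 fold change was -0.39 (SE 0.27, 95% confidence interval -1.04 to 0.26, adjusted p = 0.360 by edgeR's quasi-likelihood test). Without control 3 it was -0.61 (adjusted p = 0.0647 by edgeR), with the 2 remaining control mice above all 3 *MxCDX2* mice. Without control 2, the highest control mouse, it was -0.06 (adjusted p = 0.871 by edgeR).

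*Tgif1* (chromosome 17, 70844205 to 70853546, minus strand), a corepressor of SMAD and retinoid signalling, had 874, 1075 and 1051 normalized counts in control mice 1, 2 and 3, against 1191, 1268 and 1328 in *MxCDX2* mice 1, 2 and 3. All *MxCDX2* mice were above all control mice. The log2 fold change was 0.34 (SE 0.13, 95% confidence interval 0.02 to 0.65, adjusted p = 0.123 by edgeR's quasi-likelihood test). Its paralogue *Tgif2* (chromosome 2, 156840007 to 156855570, plus strand) had 298, 310 and 330 normalized counts in control mice 1, 2 and 3, against 222, 287 and 219 in *MxCDX2* mice 1, 2 and 3. Here all *MxCDX2* mice were below all control mice, with a log2 fold change of -0.36 (SE 0.20, 95% confidence interval -0.85 to 0.12, adjusted p = 0.252 by edgeR's quasi-likelihood test). Neither paralogue passed the test. A gene on the opposite strand of *Tgif2*, *5430405H02Rik*, had 50 to 107 reads per mouse. The strand setting used for counting is not given in the sources used here.

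**Figure D2:**
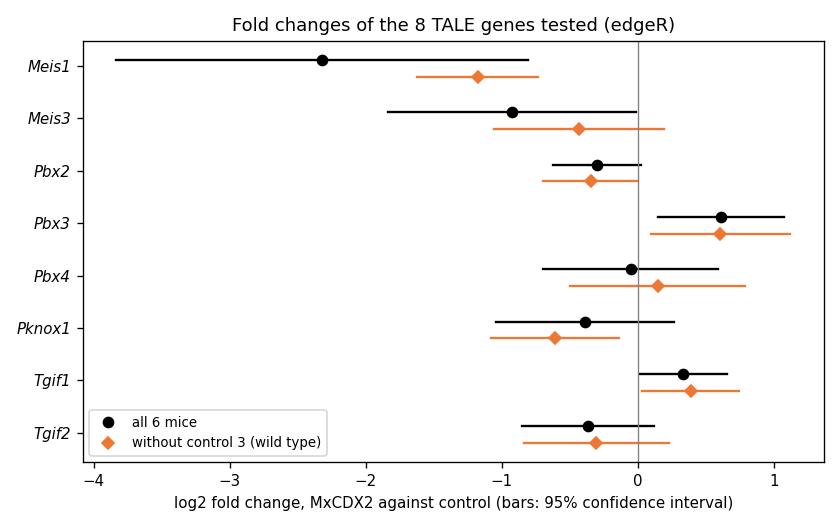
Log2 fold changes of *MxCDX2* against control mice with 95% confidence intervals from edgeR, for all 6 mice (black) and without control 3 (orange). The interval of *Meis1* lay below 0 in both fits, from -3.83 to -0.80 with all mice and from -1.62 to -0.73 without control 3, and *Pbx3* and *Tgif1* lay above 0.

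The fitted log2 fold changes of *Pbx2* and *Pbx3*, and of *Tgif1* and *Tgif2*, had opposite signs although none of the 4 passed the test, so their ratio within a mouse was computed, a measure chosen after the values were seen and given without a test. On the scale of normalized counts per kb of exon, *Tgif1* was 2.00, 2.36 and 2.17 times *Tgif2* in control mice 1, 2 and 3, against 3.65, 3.01 and 4.13 times in *MxCDX2* mice 1, 2 and 3. The ratio of *Pbx3* to *Pbx2* was 0.0645, 0.0375 and 0.0547 in the control group. It was 0.105, 0.0739 and 0.113 in the *MxCDX2* group. Neither ratio overlapped between the groups, which follows from the values of the single genes, since *Pbx3* and *Tgif1* were higher and *Pbx2* and *Tgif2* lower in every *MxCDX2* mouse. In both of them control 3 lay between the other control mice.

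**Figure D3:**
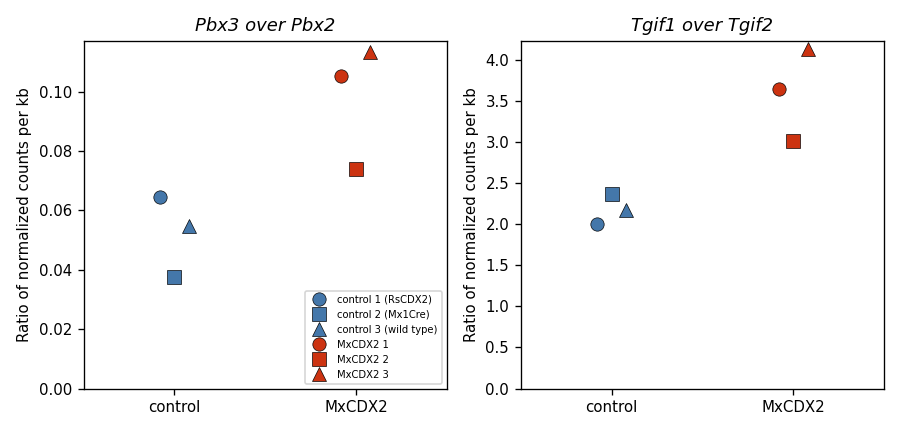
Ratio of normalized counts per kb for *Pbx3* over *Pbx2* (left) and *Tgif1* over *Tgif2* (right), where each point is 1 mouse. All *MxCDX2* mice lay above all control mice, at 0.0739 or more against at most 0.0645 for *Pbx3* over *Pbx2*, and at 3.01 or more against at most 2.36 for *Tgif1* over *Tgif2*, as the values of the single genes require.

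Levels of different genes were compared as normalized counts per kb of annotated exon, a scale that understates genes whose annotated exons are not all used. In control mice the order of mean levels was *Pbx2* (1478 ± 198, SD, n = 3), *Pknox1* (518 ± 199), *Tgif1* (178 ± 19.5), *Meis1* (88.2 ± 82.8), *Tgif2* (81.6 ± 4.26), *Pbx4* (76.2 ± 18.9), *Pbx3* (75.6 ± 12.96), *Meis3* (44.5 ± 21.7) and *Meis2* (1.25 ± 1.16). The ranges of *Pbx2*, *Pknox1* and *Tgif1* did not overlap each other. From *Tgif1* down to *Meis3* each gene overlapped its neighbour, and *Meis2* lay below them. The place of *Meis1* rested on control 3, and over control 1 and control 2 alone its mean level was 40.5, below *Tgif2* (79.3), *Pbx3* (76.7) and *Pbx4* (67.2) and above *Meis3* (32.0). In *MxCDX2* mice the order was *Pbx2* (1202 ± 129), *Pknox1* (396 ± 44.1), *Tgif1* (224 ± 12.3), *Pbx3* (115 ± 14.5), *Pbx4* (73.6 ± 8.43), *Tgif2* (63.4 ± 9.97), *Meis3* (23.4 ± 2.47), *Meis1* (17.7 ± 1.49) and *Meis2* (0.618 ± 0.608), and among neighbours only *Pbx4* and *Tgif2* overlapped. *Meis1* and *Meis3* exchanged places. *Meis1* was above *Meis3* in each control mouse, with levels per kb of 42.3 against 33.0, 38.6 against 31.0 and 184 against 69.5, and below it in each *MxCDX2* mouse, with 18.2 against 20.7, 16.0 against 24.1 and 18.8 against 25.5.

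The 3 *Pbx* genes made up 63.3 to 67.2% of the summed level per kb of the 9 genes in all 6 mice. The *Meis* genes made up 3.24, 2.41 and 10.8% in control mice 1, 2 and 3, against 1.89, 1.78 and 2.28% in *MxCDX2* mice 1, 2 and 3. The share of the *Tgif* genes was 9.33 to 11.5% in control mice and 12.7 to 15.0% in *MxCDX2* mice, and that of *Pknox1* was 14.0 to 24.9% and 17.8 to 20.5%. The share of the *Meis* genes was therefore lower and that of the *Tgif* genes higher in every *MxCDX2* mouse than in every control mouse, while the *Pbx* and *Pknox1* shares overlapped. A share also depends on the other genes of the sum. The summed level per kb of the *Tgif* genes itself overlapped, at 233, 272 and 273 in control mice 1, 2 and 3. It was 270, 300 and 293 in *MxCDX2* mice 1, 2 and 3.

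**Figure D4:**
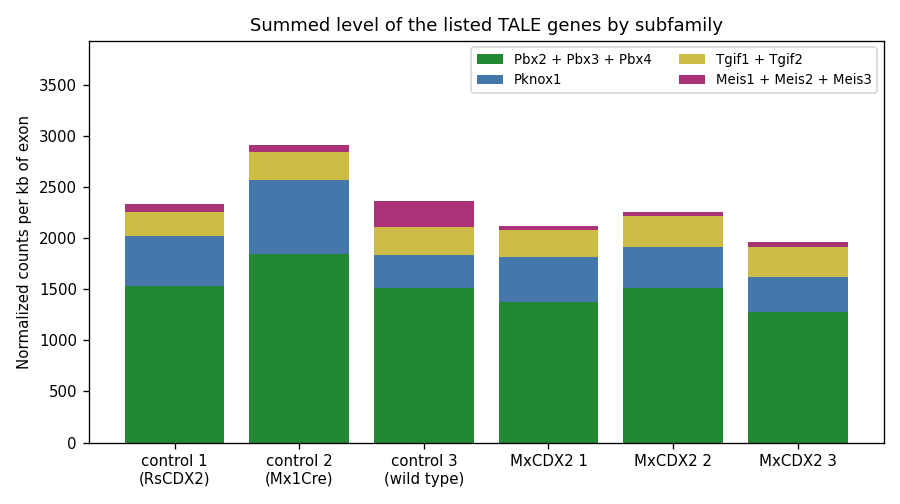
Summed normalized counts per kb of exon of the 9 genes in each mouse, stacked by subfamily. The *Pbx* genes take 63.3 to 67.2% of each bar, and the *Meis* part is widest in control 3, at 10.8%.

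By the root mean square difference of log2 profiles centred on their mean over the 6 mice, the genes tested with the pattern most like *Meis1* were *Cass4* (0.14), *Slc24a5* (0.14), *Sema6d* (0.15), *Tnik* (0.16) and *Gramd1c* (0.16). *Sema6d*, for example, had 556, 492 and 1894 normalized counts in control mice 1, 2 and 3, against 193, 188 and 256 in *MxCDX2* mice 1, 2 and 3. Each of the 5 had its highest value in control 3 and lower values in all 3 *MxCDX2* mice than in the other control mice. This follows from their choice as the genes most like *Meis1* in these same mice. *Sema6d* and *Slc24a5* were called (adjusted p = 0.0330 and 0.0494 by edgeR's quasi-likelihood test). *Cass4*, *Tnik* and *Gramd1c* were not (adjusted p = 0.0535, 0.0533 and 0.0536 by edgeR).

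Whole marrow holds many cell types, and in such bulk samples fewer cells of a type and less RNA per cell cannot be told apart. Of the 8 megakaryocyte markers, among them *Pf4*, *Itga2b* and *Gp9*, 3 fell and none rose by edgeR's quasi-likelihood test, with a median log2 fold change of -3.46. Their summed level was 712, 498 and 5964 CPM in control mice 1, 2 and 3, against 306, 223 and 307 CPM in *MxCDX2* mice 1, 2 and 3. Like *Meis1*, it was highest in control 3, there at 9.86 times the mean of the other control mice, and lowest in the *MxCDX2* mice. Without control 3, 6 of the 8 fell, with a median of -1.44, beside the -1.18 of *Meis1*. The part of this change in the fall of *Meis1* was not tested.

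Of the 9 stem and early progenitor markers, 8 were tested and 2 fell, among them *Kit* (-0.69), which encodes a growth factor receptor of progenitors. Their summed level was 183, 168 and 443 CPM in the control group and 175, 192 and 188 CPM in the *MxCDX2* group, so that it overlapped between the groups. All 9 erythroid markers fell (18197 to 20222 CPM in control mice, 492 to 2188 CPM in *MxCDX2* mice), a sum in which control 3 did not stand apart. All 7 monocyte markers rose, from 1030 to 1183 CPM in control mice to 4833 to 6695 CPM in *MxCDX2* mice, and 5 of 7 neutrophil markers fell, from 28678 to 46246 CPM to 12769 to 17699 CPM. Of the B cell markers 4 of 9 fell, with 425 to 1156 CPM in control mice and 97.2 to 321 CPM in *MxCDX2* mice. Calls for the other marker lists were 1 of 7 lower for T cells (84.7 to 195 CPM in control and 38.5 to 74.6 CPM in *MxCDX2* mice), 2 of 8 lower for stroma and endothelium (390 to 1336 and 237 to 425 CPM), 2 of 8 lower for dendritic cells (299 to 757 and 355 to 462 CPM) and 1 of 4 higher for promyelocytes (689 to 3710 and 3795 to 3998 CPM). Control 3 was the highest control mouse for T cell, stroma and dendritic markers and the lowest for promyelocyte, neutrophil and B cell markers. Without control 3, edgeR's quasi-likelihood test called 8 of 9 B cell and 7 of 7 neutrophil markers lower. It then called 1 stroma and endothelium marker higher and none lower, 2 dendritic markers higher and 2 lower, 1 promyelocyte marker higher and 1 lower, and 1 stem and early progenitor marker higher and 2 lower. How far these shifts enter the values of each TALE gene was not tested.

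**Figure D5:**
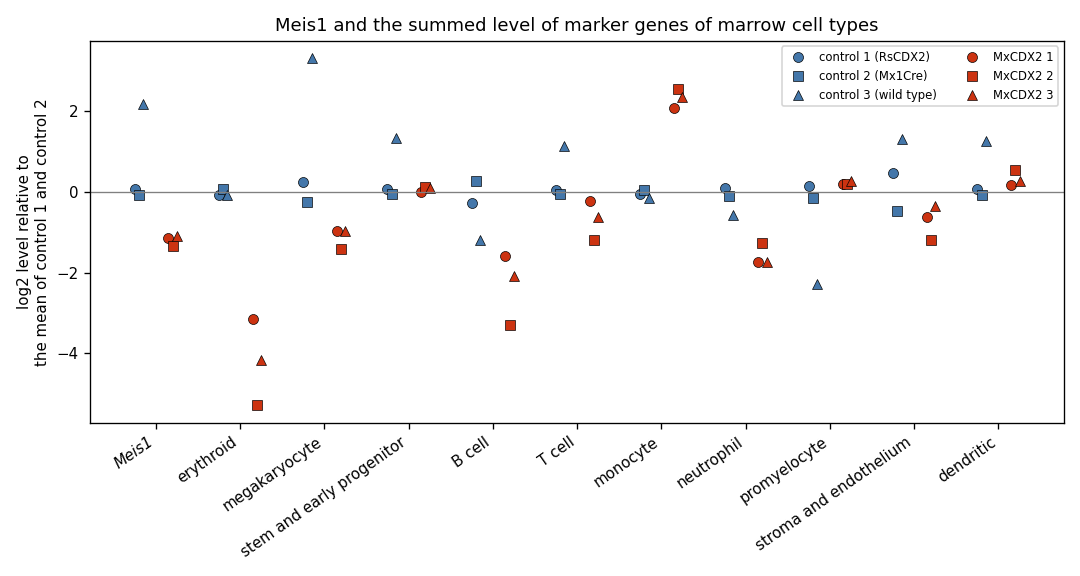
Log2 level of *Meis1* and of the summed markers of 10 marrow cell types in each mouse, relative to the mean log2 level of control 1 and control 2 (horizontal line at 0). Control 3 (blue triangle) was the highest mouse for *Meis1* and for megakaryocyte markers, at 4.54 and 9.86 times the mean of the other control mice. It was also the highest mouse for stem and early progenitor (2.52 times), T cell (2.22 times), stroma and endothelium (2.36 times) and dendritic markers (2.40 times).

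The partners of the TALE proteins were described from fixed lists. Of 39 *Hox* cluster genes, whose proteins are the main partners of PBX and MEIS, 12 were tested, 1 rose and none fell by edgeR's quasi-likelihood test. This was *Hoxb4*, known for expanding hematopoietic stem cells, which had 262, 460 and 335 normalized counts in control mice 1, 2 and 3, against 726, 688 and 602 in *MxCDX2* mice 1, 2 and 3. All *MxCDX2* mice were above all control mice (log2 fold change 0.93, SE 0.24, adjusted p = 0.0366 by edgeR), and the call held in 1 of the 6 fits that left out a mouse, the one without control 2, with an adjusted p of 0.0610 without control 3. The median log2 fold change of the *Hox* genes was -0.21 with all mice and 0.45 without control 3, over the same 12 genes.

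*Hoxa9*, chosen after its values were seen because its protein is the best known partner of MEIS1, had 120, 131 and 360 normalized counts in control mice 1, 2 and 3, against 64.6, 80.3 and 42.7 in *MxCDX2* mice 1, 2 and 3. It was lowest in the *MxCDX2* mice and highest in control 3, as *Meis1* was. The log2 fold change of -1.71 did not pass (adjusted p = 0.0587 by edgeR), and without control 3 it was -0.99 (adjusted p = 0.0853 by edgeR). *Hoxa7* (-1.69, adjusted p = 0.0911 by edgeR) and *Hoxa10* (-1.59, adjusted p = 0.0567 by edgeR), also named after their values were seen, had the same pattern and did not pass. *Hoxb3*, like *Hoxb4*, was higher in all *MxCDX2* mice (0.95, adjusted p = 0.0838 by edgeR). The paper, which used DESeq2, reported *Hoxa7*, *Hoxa9* and *Hoxa10* as downregulated. Of 8 other TALE homeobox genes (*Pknox2*, *Mkx* and the *Irx* genes), 3 were tested and none was called.

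Of 9 genes for the MLL complex and its elongation partners, which act upstream of *Hoxa* and *Meis1* in leukemia, 1 fell and none rose. This was *Psip1*, which encodes the chromatin tether LEDGF, with 4461, 4167 and 3897 normalized counts in control mice 1, 2 and 3, against 2765, 2257 and 2508 in *MxCDX2* mice 1, 2 and 3. The groups were well separated (log2 fold change -0.73, SE 0.11, adjusted p = 0.00672 by edgeR), and the call held in all 6 fits that left out a mouse. Without control 3 a second gene of this list was called, *Aff1* (-0.89, adjusted p = 0.0143 by edgeR), named after its values were seen.

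Of 10 genes listed as downstream of HOX and MEIS, *Ccl3* rose (log2 fold change 1.48, SE 0.35, adjusted p = 0.0280 by edgeR) and *Ccnd3* fell (-0.63, SE 0.18, adjusted p = 0.0473 by edgeR). *Ccl3* encodes a chemokine and *Ccnd3* the cell cycle regulator cyclin D3. *Ccl3* had 135, 180 and 260 normalized counts in the control group against 347, 698 and 567 in the *MxCDX2* group. *Ccnd3* had 30740, 27996 and 23675 in the control group against 21177, 14815 and 17336 in the *MxCDX2* group. Each of these calls held in 2 of the 6 fits that left out a mouse, namely without control 3 and without *MxCDX2* mouse 1. Without control 3 the stem and progenitor gene *Cd34* was also called (1.505, adjusted p = 0.00327 by edgeR), and *Cd34* too is named after its values were seen.

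Of 12 genes for the partners of TGIF in the repression of TGF-beta and retinoid signalling, 3 rose and 1 fell. *Ski*, which encodes a corepressor that binds SMAD proteins, rose with a log2 fold change of 0.68 (SE 0.08, adjusted p = 0.00331 by edgeR). It had 3302, 3446 and 3249 normalized counts in control mice 1, 2 and 3, against 5308, 5419 and 5269 in *MxCDX2* mice 1, 2 and 3, and the call held in all 6 fits that left out a mouse. The paralogous corepressors *Ctbp1* and *Ctbp2* moved in opposite directions, with log2 fold changes of -0.46 (SE 0.10, adjusted p = 0.0213 by edgeR) and 0.94 (SE 0.22, adjusted p = 0.0286 by edgeR). *Rxra*, a retinoid receptor gene, rose by 0.44 on the log2 scale (SE 0.11, adjusted p = 0.0371 by edgeR). Leaving out a mouse, *Ctbp1* was called in 1 of 6 fits and *Ctbp2* and *Rxra* in 2 each, in every case including the fit without control 3. That fit also called *Skil*, a paralogue of *Ski* named after its values were seen (-0.60, adjusted p = 0.0165 by edgeR).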

How the data were processed

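Total RNA of whole bone marrow from 6 mice was sequenced as stranded mRNA libraries. The authors aligned reads with STAR (version 2.5) to GRCm38 (Ensembl release 90), made counts for each gene with HTSeq (version 0.6.1) and deposited these raw counts without normalization. Rows that name no gene were left out (9.22 to 14.1% of reads without a feature and 2.99 to 3.16% ambiguous). Ambiguous reads are not counted on either of 2 overlapping genes.

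Groups came from the labels. Symbols, positions and exon lengths came from GENCODE M21, which named 37607 of 39179 identifiers. The tests were run in R 4.3.3, with edgeR 4.0.16 (TMM, filterByExpr, glmQLFit, glmQLFTest), with DESeq2 1.42.0 (a later version of the tool the authors used) and limma 3.58.1 as alternatives. The others were DESeq2's size factors, total counts, the 10 most abundant genes left out of TMM, filters of at least 1 count in any mouse and of 10 in each, and each mouse left out in turn. Orders of levels, medians and *Meis2* without control 3 were added after the data were seen. The SE was derived from the quasi-likelihood F statistic. The scripts were tested on simulated data, with the same spread for every gene and no outlying mouse. There edgeR found 2.99% of genes changed by 0.5 on the log2 scale, 55.7% at 1 and 100% at 2. A gene that was not called can therefore still have changed. The exact permutation test used log2 of normalized counts plus 1. Python 3.11.15, numpy 2.4.6 and matplotlib 3.10.9 were used for sequences and plots.

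All 9 members are named, with the called genes of each partner list (at most 4, by p), the 5 profiles nearest to a member past both thresholds, and *Cdx2*. Some listed genes that the rule would name are not reported here. The members and lists were chosen with earlier results of these data known. How far the spread between mice and the number of reads each limit precision was not tested. *Meis2* had the fewest reads of the members.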

Additional observations from a re-analysis of the deposited data

How the results depend on the processing

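Over the 8 genes tested and 13 alternatives, direction and side of the threshold were kept in 94 of 104 values. *Meis1* was lower in every alternative. Total counts in place of TMM gave a log2 fold change of -2.24 that was not called, so no gene passed both thresholds (0) while *Pbx3* was called (0.73). That setting moved the median of all genes to 0.12 and the share of higher genes among those called to 58.6% against 45.6%, and turned *Pbx4* to 0.058. Leaving out 1 mouse, *Pbx4* ranged from -0.21 to 0.15, with the sign turned without control 3 (0.15) and without *MxCDX2* mouse 1 (0.02). DESeq2 called 2 of the members, *Meis1* and *Pbx3* (0.62), and 15 partner genes against 9. With limma voom *Meis1* was at -1.99, and 0 members were called and 0 passed both thresholds. The cause was not tested.

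With 1 mouse left out in turn, 1482 to 4361 of all genes were called against 3471, 0 to 1 members were called and passed both thresholds, and 3 to 11 partner genes were called. The lowest count of all genes, 1482, was without *MxCDX2* mouse 3, and it was 2052 without *MxCDX2* mouse 2. The highest, 4361, was without control 3. No paired analysis was possible because the labels number the *MxCDX2* mice but give the control mice, each of a different genotype, no mouse number.

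*Meis2*, at 3 to 34 reads per mouse, is too shallow for a difference to be detectable, and levels per kb rest on annotated exons.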
